A study of Mus musculus with 13 samples.

Results

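*Cs*, *Idh3a*, *Ogdh*, *Sucla2*, *Fh1*, *Mdh2*, *Pdha1*, *Pdk2* and *Pdk4* encode 6 enzymes of the tricarboxylic acid (TCA) cycle, the catalytic E1 alpha subunit of pyruvate dehydrogenase and a pair of the kinases that switch this enzyme off. The 9 genes were chosen by name, for their place in the pathway, out of 36109 genes listed in the processed data, and all 9 passed the filter on low counts in both tissues. RNA was sequenced from mice with deletion of *Hmox2* (*Hmox2*-/-), which encodes heme oxygenase 2, and from their wild-type littermates (*Hmox2*+/+), all kept in room air. Aortic endothelial cells (ECs) came from 3 *Hmox2*+/+ and 3 *Hmox2*-/- mice, and whole heart tissue from 4 *Hmox2*+/+ and 3 *Hmox2*-/- mice. The mice sequenced were young per the study, and the labels give neither their exact age nor their sex. The series describes ECs and hearts as matched, but no label ties an EC library to the heart of the same mouse. *Hmox2*-/- mice lack the gene in all cells, including cells other than ECs and cardiomyocytes.

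The TCA cycle oxidizes acetyl groups in the mitochondrial matrix and passes the electrons on to the respiratory chain. Pyruvate dehydrogenase supplies it with acetyl-CoA made from glucose and lactate, and pyruvate dehydrogenase kinases (PDKs) phosphorylate the E1 alpha subunit and shut that supply. The heart draws most of its acetyl-CoA from fatty acids, and *Pdk4* is known there as a gene induced by fasting, fatty acids and the receptor PPAR alpha.

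The promoters of the members whose level differed between the genotypes in heart tissue are shown because these members did not all move the same way. A table of RefSeq promoters held entries for 8 of the 9 members, without *Idh3a*. For the 4 others that passed the test in heart tissue, the 250 bases before the transcription start are given 5′ to 3′ on the strand of the gene (build GRCm38.p6), with the motif match of *Sucla2* and a repeated word of *Mdh2* in capitals.
*Mdh2* (chr5:135778399-135778648, plus strand): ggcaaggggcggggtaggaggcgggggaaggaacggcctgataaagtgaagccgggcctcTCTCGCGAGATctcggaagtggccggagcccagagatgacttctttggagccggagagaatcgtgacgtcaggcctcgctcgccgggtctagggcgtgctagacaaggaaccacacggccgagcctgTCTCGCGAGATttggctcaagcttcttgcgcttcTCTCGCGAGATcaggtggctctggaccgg
*Sucla2* (chr14:73552536-73552785, plus strand): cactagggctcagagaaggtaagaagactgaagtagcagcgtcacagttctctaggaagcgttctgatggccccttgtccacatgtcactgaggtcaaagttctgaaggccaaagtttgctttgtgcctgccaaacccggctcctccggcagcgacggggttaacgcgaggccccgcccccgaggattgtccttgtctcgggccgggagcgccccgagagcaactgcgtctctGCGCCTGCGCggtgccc
*Fh1* (chr1:175625636-175625885, minus strand): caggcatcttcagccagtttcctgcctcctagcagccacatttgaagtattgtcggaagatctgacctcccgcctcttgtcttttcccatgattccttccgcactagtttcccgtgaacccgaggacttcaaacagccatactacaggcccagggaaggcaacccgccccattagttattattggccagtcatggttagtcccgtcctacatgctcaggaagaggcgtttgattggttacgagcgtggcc
*Pdk4* (chr6:5496279-5496528, minus strand): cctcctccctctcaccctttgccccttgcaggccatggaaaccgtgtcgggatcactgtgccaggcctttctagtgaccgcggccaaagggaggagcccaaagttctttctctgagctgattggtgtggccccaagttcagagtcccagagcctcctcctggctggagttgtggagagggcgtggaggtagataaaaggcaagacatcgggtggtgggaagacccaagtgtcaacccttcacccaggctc

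The searched motifs, on both strands, were the estrogen-related receptor motif of ESRRA (TNAAGGTCA), the NRF1 palindrome, the motif of GABPA and other ETS factors (CCGGAAGT), the direct repeat of PPAR with RXR and the FOXO motif (TGTTTAC). *Sucla2* held the 1 match among the 14 promoters of these 8 members, to the NRF1 motif on the minus strand, 17 bases before the start at its first base. In windows of 250 bases the NRF1 motif was found in 3.74% of all 32851 promoters, the ETS motif in 2.88%, the FOXO motif in 3.17%, the ESRRA motif in 1.14% and the PPAR motif in 0.0335%. The capitals of *Mdh2* mark the word TCTCGCGAGAT, looked for after the promoters were seen as the longest word that stands 3 times in the window of a member. On either strand, 0.164% of the 32851 windows held it at least once. The *Pdk4* window had 6 CpG dinucleotides against 23 in that of *Mdh2*, 18 in that of *Sucla2* and 10 in that of *Fh1*. None of these matches says that a factor bound there.

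Total estimated counts were 26067147 to 31619776 in 12 libraries and 7268626 in heart *Hmox2*+/+ replicate 1. *Hmox2* was 63.9 to 76.2 CPM (counts scaled to a library of equal size) in *Hmox2*+/+ ECs and 12.6 to 14.7 CPM in *Hmox2*-/- ECs, and 37.3 to 42.5 CPM against 7.53 to 8.90 CPM in heart tissue. The labels therefore held in every library, although 73.4% of the 31-base words of *Hmox2* also occur in other genes, mostly in its neighbour *Cdip1*. The heart libraries held cardiomyocyte markers at a summed 60998 to 70838 CPM. The aortic libraries held endothelial markers at a summed 3097 to 6542 CPM, together with much RNA of fat: *Ucp1*, which defines brown adipocytes, was 1340 to 2712 CPM in them and at most 0.142 CPM in heart tissue. Each of the 6 libraries labelled aortic EC therefore held RNA of both cell types. In bulk RNA, fewer cells of a type and less RNA per cell cannot be told apart.

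In ECs, the question was whether the expression of the pathway changed with loss of *Hmox2* in the vessel. Levels are given as CPM after normalization by the trimmed mean of M-values (TMM) within the tissue, and a gene was called where edgeR's quasi-likelihood test gave a Benjamini-Hochberg adjusted p no higher than 0.05. Of the 9 members 3 fell and none rose, where 8.06% of the 15301 genes tested were called lower. *Ogdh*, *Pdk2* and *Pdk4* fell to about 46.4%, 49.5% and 48.2% of their mean level in *Hmox2*+/+ ECs. The other 6 were lower by sign but did not pass the test, and the median log2 fold change of the 9 was -0.78 against -0.02 for all genes.

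*Pdk2* encodes a PDK present in most tissues. It was 312, 287 and 189 CPM in *Hmox2*+/+ ECs and 133, 120 and 137 CPM in *Hmox2*-/- ECs. The groups did not overlap, with a log2 fold change of -1.01 ± 0.20 (SE) at an adjusted p of 0.0164 (edgeR).

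*Pdk4* was 1401, 1158 and 678 CPM in *Hmox2*+/+ ECs and 539, 461 and 559 CPM in *Hmox2*-/- ECs. All 3 *Hmox2*-/- libraries lay below the lowest *Hmox2*+/+ library, with a log2 fold change of -1.05 ± 0.27 (adjusted p = 0.0374, edgeR).

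*Ogdh* encodes the E1 subunit of 2-oxoglutarate dehydrogenase, which turns 2-oxoglutarate into succinyl-CoA. Its levels of 1873, 1392 and 946 CPM in *Hmox2*+/+ ECs faced 515, 746 and 693 CPM in *Hmox2*-/- ECs. Again the groups did not overlap, and the log2 fold change was -1.11 ± 0.28 (adjusted p = 0.0361, edgeR).

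*Fh1*, which encodes fumarase, was the fourth member without overlap, where 18.7% of all genes tested had lower *Hmox2*-/- libraries without overlap. It was 516, 437 and 284 CPM in *Hmox2*+/+ ECs and 212, 273 and 257 CPM in *Hmox2*-/- ECs, with a log2 fold change of -0.74 ± 0.23 that did not pass the test (adjusted p = 0.0641, edgeR). With 3 libraries against 3, the exact two-sided permutation test of a single gene cannot go below p = 0.1, and these 4 members reached that value.

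*Cs* encodes citrate synthase, the entry step of the cycle. It ranged from 896.1 to 1701 CPM in *Hmox2*+/+ ECs and from 554 to 928 CPM in *Hmox2*-/- ECs, and the ranges overlapped (log2 fold change -0.78 ± 0.29, adjusted p = 0.101, edgeR). *Pdha1* had nearly the same fold change (-0.78 ± 0.31, adjusted p = 0.113), with 775 to 1500 CPM against 462 to 830 CPM. *Mdh2*, which encodes the mitochondrial malate dehydrogenase that closes the cycle, was 537 to 819 CPM against 373 to 547 CPM (-0.62 ± 0.22, adjusted p = 0.0903).

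*Idh3a* and *Sucla2* had the smallest differences. *Idh3a*, the catalytic subunit of NAD-dependent isocitrate dehydrogenase, was 553 to 1013 CPM in *Hmox2*+/+ ECs and 486 to 748 CPM in *Hmox2*-/- ECs (-0.30 ± 0.26, adjusted p = 0.450, edgeR). *Sucla2*, the ADP-forming beta subunit of succinyl-CoA ligase, was 476 to 963 CPM against 491 to 635 CPM (-0.24 ± 0.28, adjusted p = 0.567). Without *Hmox2*+/+ replicate 1, which had the 963 CPM, the log2 fold change of *Sucla2* was 0.13.

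The number of called members in ECs rested on single libraries. It was 0 without *Hmox2*-/- replicate 2 and 0 without *Hmox2*-/- replicate 3, it was 1 without *Hmox2*+/+ replicate 1, *Hmox2*+/+ replicate 2 or *Hmox2*-/- replicate 1, and it was 6 without *Hmox2*+/+ replicate 3. *Pdk2* was the member most often called in these fits, in 4 of 6, and *Ogdh* and *Pdk4* were called in 1 of 6 each. All 3 stayed negative in each fit.

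**Figure D1:**
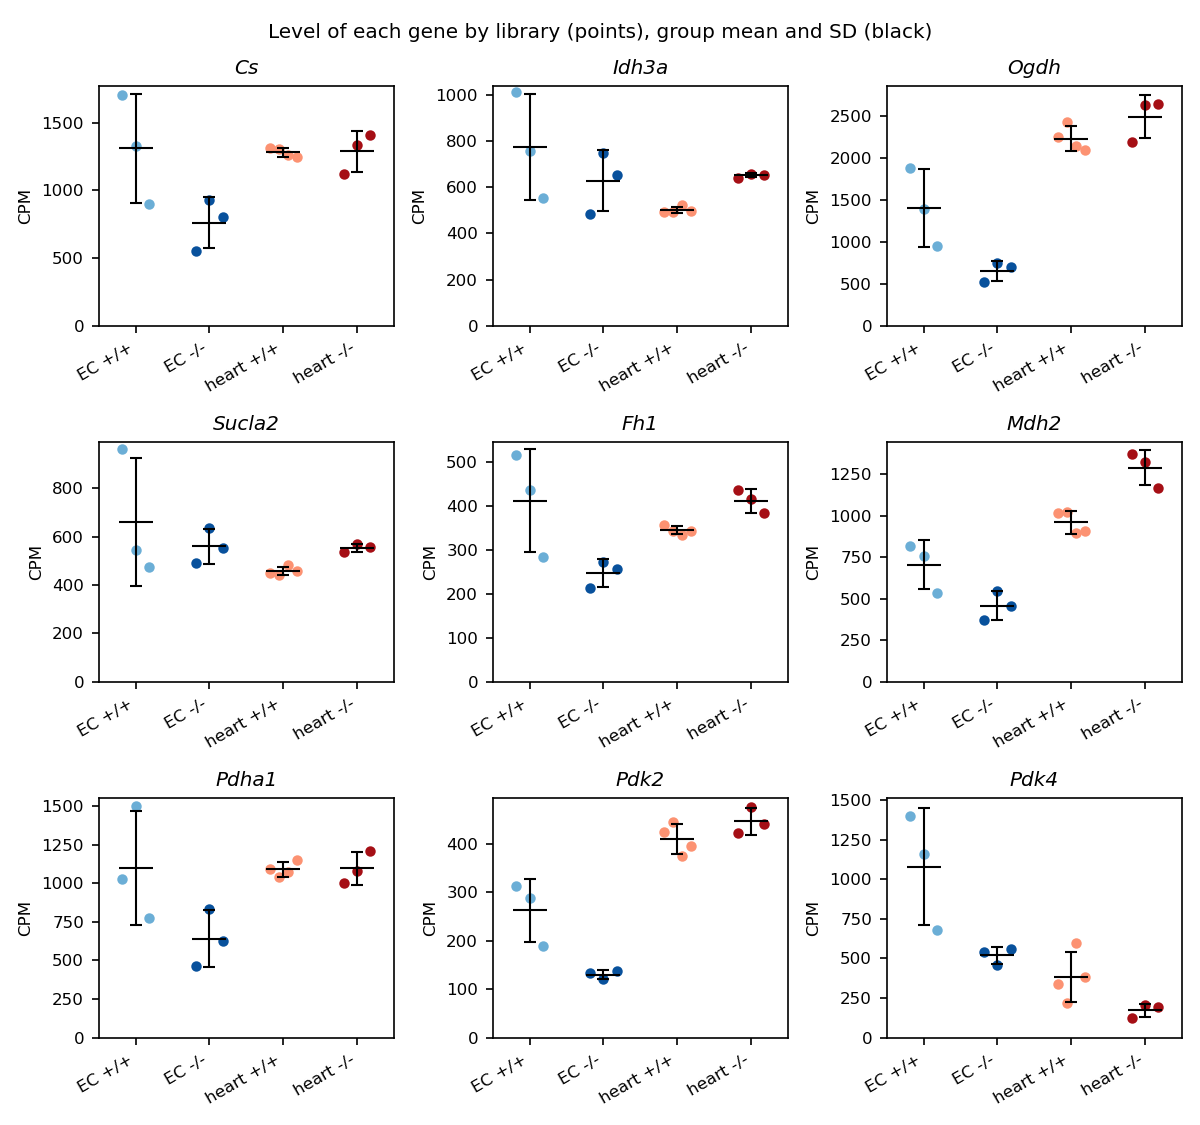
The 9 panels give the level of each gene in CPM (y axis) for aortic ECs and heart tissue of *Hmox2*+/+ and *Hmox2*-/- mice (x axis). Points are libraries and black bars the mean and SD. *Pdk4* is lower in *Hmox2*-/- libraries of both tissues, and none of the other 8 was called lower in heart tissue. CPM was normalized within each tissue, so ECs and heart tissue are not on the same scale.

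Brown adipocyte RNA varied among the EC libraries. *Ucp1* was 2462, 1753 and 1370 CPM in *Hmox2*+/+ replicates 1 to 3 and 1340, 2712 and 2536 CPM in the *Hmox2*-/- ones, so the genotypes overlapped. The next most abundant pair of brown adipocyte markers was lower in *Hmox2*-/- libraries without overlap. *Cidea*, a lipid droplet protein, was 1007 to 1612 CPM against 613 to 975 CPM and *Cox8b*, a subunit of respiratory complex IV, 437 to 742 CPM against 332 to 370 CPM. The 7 markers summed to 3072 to 5257 CPM against 2584 to 4395 CPM, with 4 lower by sign, 1 called lower by edgeR and 2 called by DESeq2. Within each genotype, *Cs*, *Idh3a*, *Ogdh*, *Sucla2*, *Fh1* and *Mdh2* ranked the 3 libraries in the same order as *Ucp1*. *Pdha1* did so in *Hmox2*-/- libraries only, and *Pdk2* and *Pdk4* in *Hmox2*+/+ libraries only. How many of all genes rank the libraries in this order was not computed, so the shared order has no background.

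How many members had *Hmox2*-/- libraries below all *Hmox2*+/+ libraries once divided by a fat marker depended on the marker. The number was 8 with *Ucp1*, 7 with the summed brown adipocyte markers and 4 with *Adipoq*, which marks adipocytes in general. *Ogdh*, *Fh1*, *Pdk2* and *Pdk4* were apart with each of them. The share of all genes apart after such a division was not computed, so these numbers have no background. The mean of *Ucp1* was 1862 CPM in *Hmox2*+/+ ECs and 2196 CPM in *Hmox2*-/- ECs, so this divisor was itself higher in the latter. The ratio of *Ogdh* to *Ucp1* was 0.691 to 0.794 in *Hmox2*+/+ ECs and 0.273 to 0.385 in *Hmox2*-/- ECs, and that of *Pdk4* was 0.495 to 0.661 against 0.170 to 0.402. *Sucla2* overlapped, at 0.311 to 0.391 against 0.218 to 0.367. With the summed level of 7 brown adipocyte markers as a covariate, a fit added once the values were known, *Ogdh* (log2 fold change -0.87, adjusted p = 0.0303, edgeR) and *Pdk2* (-0.90, adjusted p = 0.0403) were called. *Pdk4* was not (-0.88, adjusted p = 0.0868).

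**Figure D2:**
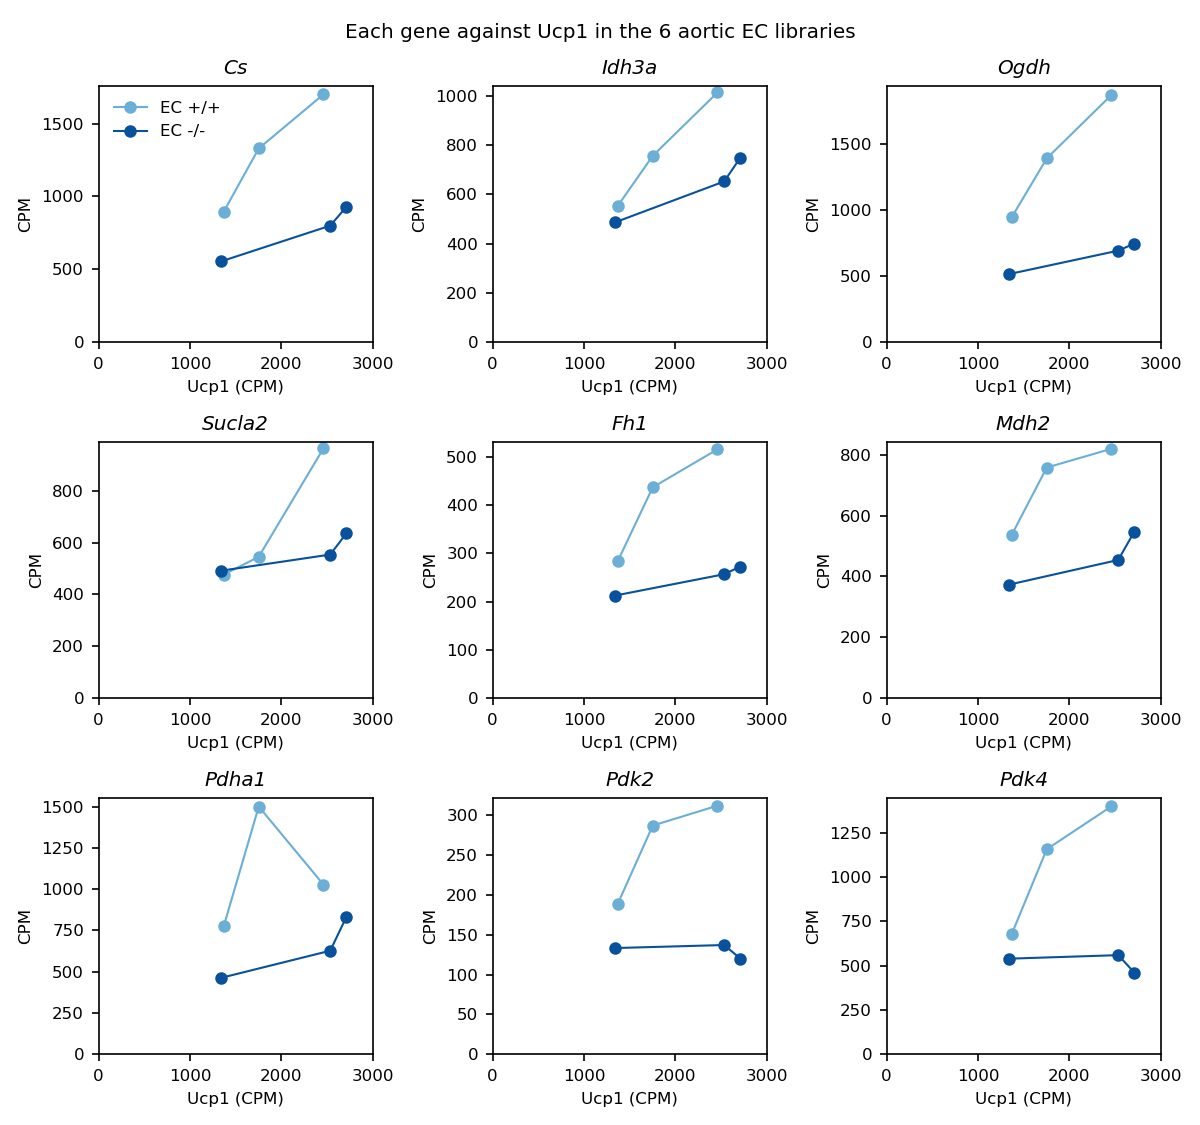
Each panel sets 1 gene (y axis, CPM) against *Ucp1* (x axis, CPM) in the 6 aortic EC libraries, with lines joining the libraries of a genotype in order of *Ucp1*. At like *Ucp1* levels, near the low and the high end of the x axis, the *Hmox2*-/- points of each gene but *Sucla2* lie below the *Hmox2*+/+ points. Those of *Sucla2* lie below at the high end only.

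Other cell types moved with the genotype in the aortic libraries. The summed cardiomyocyte markers (10 of 10 detected) were 164 to 618 CPM in *Hmox2*+/+ ECs and 11.2 to 15.96 CPM in *Hmox2*-/- ECs, and 9 of the 10 were called lower. Smooth muscle markers were 3404 to 6690 CPM against 1126 to 3765 CPM, with 3 of 8 called lower, and fast skeletal muscle markers 14.3 to 79.2 CPM against 1.43 to 1.92 CPM, with 7 of 7 called lower and *Myh4* at 0 in all *Hmox2*-/- libraries. In the other direction, endothelial markers were 3097 to 4509 CPM against 5409 to 6542 CPM, with 4 of 10 called higher and 1 lower, and fibroblast markers 3495 to 6026 CPM against 6844 to 7709 CPM, with 3 of 7 called higher. Macrophage markers were 270 to 353 CPM against 410 to 559 CPM, with 3 of 7 called higher. The summed general adipocyte markers overlapped, at 3932 to 6190 CPM against 4618 to 5817 CPM, but 2 of 7 were called lower (edgeR) and 4 were called by DESeq2. Among them *Lipe*, the hormone-sensitive lipase, was 587 to 1188 CPM against 374 to 437 CPM, and *Cfd* was 1609 to 2134 CPM against 2623 to 3097 CPM. The erythroid markers overlapped as well, at 2398 to 3675 CPM against 1908 to 3566 CPM. The part of these cell types in the lower levels of *Ogdh*, *Pdk2* and *Pdk4* was not tested.

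In heart tissue the question was whether the same genes changed in an organ that depends on this cycle. Of the 9 members, *Idh3a*, *Sucla2*, *Fh1* and *Mdh2* rose and *Pdk4* fell, where 17.2% of the 13816 genes tested were called higher and 16.2% lower. The rises were small, from 119% of the *Hmox2*+/+ mean for *Fh1* to 134% for *Mdh2*, while *Pdk4* fell to 45.3%. *Cs*, *Ogdh*, *Pdha1* and *Pdk2* did not pass the test. The same 5 members were those without overlap between the genotypes, where 20.6% of all genes tested lay higher and 19.8% lower without overlap.

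*Pdk4* was 336, 221, 594 and 385 CPM in *Hmox2*+/+ hearts and 127, 203 and 191 CPM in *Hmox2*-/- hearts. The highest *Hmox2*-/- heart lay just under the lowest *Hmox2*+/+ heart, and the *Hmox2*+/+ hearts were widely spread. The log2 fold change was -1.14 ± 0.28 (adjusted p = 0.0104, edgeR), and leaving out 1 library at a time it stayed between -1.33 and -0.85 and was called in 7 of 7 fits. The exact permutation test gave p = 0.0571, where the smallest p that 4 against 3 libraries allow is 0.0286.

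*Mdh2* was 1016, 1021, 895 and 907 CPM in *Hmox2*+/+ hearts and 1369, 1327 and 1170 CPM in *Hmox2*-/- hearts, with a log2 fold change of 0.43 ± 0.10 (adjusted p = 0.00933, edgeR). *Idh3a* was more even within the groups, at 494, 492, 521 and 499 CPM against 642, 658 and 655 CPM (0.38 ± 0.09, adjusted p = 0.00734). Both were called whichever library was left out. With an offset for transcript length and GC content, however, *Mdh2* was no longer called (0.12, adjusted p = 0.277, edgeR). Over 9 alternative settings that used all libraries, *Idh3a* was called in 8 and *Mdh2* in 7.

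*Sucla2* was 451, 440, 483 and 459 CPM in *Hmox2*+/+ hearts and 536, 567 and 558 CPM in *Hmox2*-/- hearts (0.27 ± 0.09, adjusted p = 0.0324, edgeR). *Fh1* was 356, 344, 335 and 343 CPM against 436, 416 and 383 CPM (0.26 ± 0.09, adjusted p = 0.0445). No libraries overlapped for either gene, but both calls were near the threshold. *Sucla2* lost its call in 5 of the 7 fits that left out 1 library and *Fh1* in 6, and *Sucla2* also lost it with the offset for length and GC content (0.09, adjusted p = 0.401). Over the 9 alternative settings that used all libraries, *Sucla2* was called in 4 and *Fh1* in 5.

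The 4 other members were not called. *Cs* was 1244 to 1315 CPM in *Hmox2*+/+ hearts and 1118 to 1411 CPM in *Hmox2*-/- hearts (log2 fold change 0.01 ± 0.10, adjusted p = 0.956, edgeR). *Pdha1* was 1044 to 1153 CPM against 999 to 1210 CPM (0.01 ± 0.10, adjusted p = 0.961). *Ogdh* was 2088 to 2426 CPM against 2192 to 2642 CPM (0.16 ± 0.10, adjusted p = 0.255), but with the offset for length and GC content it was called higher (0.28, adjusted p = 0.0146). *Pdk2* was 374 to 446 CPM against 422 to 477 CPM (0.12 ± 0.10, adjusted p = 0.352).

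Some other RNA differed between the heart genotypes. Erythroid markers summed to 183 to 341 CPM in *Hmox2*+/+ hearts and 887 to 1456 CPM in *Hmox2*-/- hearts, with 5 of the 5 tested called higher. Transcripts encoded by mitochondrial DNA took 37.3 to 43.9% of the counts in *Hmox2*+/+ hearts against 22.3 to 27.0% in *Hmox2*-/- ones. Cardiomyocyte markers were 60998 to 64779 CPM against 63654 to 70838 CPM, with 5 of 10 called higher. Endothelial markers were 558 to 670 CPM against 733 to 751 CPM, with 3 of 10 called higher and 1 lower. Macrophage markers were 89.5 to 128 CPM against 126 to 211 CPM, with 4 of 7 called higher, and smooth muscle markers 306 to 362 CPM against 329 to 426 CPM, with 3 of 8 called higher and 1 lower. Fibroblast markers were 558 to 658 CPM against 574 to 763 CPM, with 2 of 7 called lower. With the mitochondrially encoded genes left out, the log2 fold change of *Pdk4* was -1.14 and that of *Sucla2* 0.27, and both were called. The part of the erythroid RNA and of these cell types in the changes of the members was not tested.

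The effects of the genotype in the tissues were compared as an interaction over all 13 libraries, which were treated as independent although ECs and hearts are described as matched. *Ogdh* (difference in log2 fold change, heart minus ECs, 1.31 ± 0.31, adjusted p = 0.00717, edgeR), *Pdk2* (1.18 ± 0.23, adjusted p = 0.00234), *Mdh2* (1.09 ± 0.25, adjusted p = 0.00611) and *Fh1* (1.03 ± 0.24, adjusted p = 0.00704) differed between the tissues, where 28.8% of the 15938 genes tested were called in either direction and 16.2% with a positive difference. For *Cs* (0.83, adjusted p = 0.0581), *Pdha1* (0.83, adjusted p = 0.0674), *Idh3a* (0.72, adjusted p = 0.0605) and *Sucla2* (0.55, adjusted p = 0.163) the difference had the same sign and was not called. *Pdk4* was the 1 member without a positive difference, at -0.05 ± 0.43 (adjusted p = 0.956, edgeR). Its SE leaves room for a difference of either sign. With the offset for length and GC content the difference of *Mdh2* was 0.67 and was not called (adjusted p = 0.0546, edgeR).

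The rest of the cycle was read from a list of 18 enzymes of the TCA cycle, of which the members are 6. In ECs 3 of the 18 fell and none rose, where 8.06% of all genes were called lower. DESeq2 called 14 of the 18, and over all genes it called 4033 in ECs in place of 2766 with edgeR. The 3 called by edgeR were *Ogdh*, *Idh3b* (log2 fold change -0.81, adjusted p = 0.0456, edgeR) and *Idh3g* (-0.78, adjusted p = 0.0376). *Idh3b* and *Idh3g* encode the regulatory subunits that work with *Idh3a*. The median of the list was -0.73 and all 18 were lower by sign.

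In heart tissue 9 of the 18 rose and none fell, where 17.2% of all genes were called higher and 16.2% lower. These 9 include *Idh3a*, *Sucla2*, *Fh1* and *Mdh2*, none of which was called with all 13 libraries in 1 fit. The list median was 0.25 against -0.01 for all genes. The pair *Sdhb* (0.69, adjusted p = 0.00136, edgeR) and *Sdhd* (0.60, adjusted p = 0.00136), subunits of succinate dehydrogenase, rose most, while *Sdha*, its flavoprotein, was 0.04 (adjusted p = 0.819). All 3 subunits of NAD-dependent isocitrate dehydrogenase rose together, *Idh3a* with *Idh3b* (0.41, adjusted p = 0.0108) and *Idh3g* (0.34, adjusted p = 0.0129). *Suclg1*, the alpha subunit that pairs with the product of *Sucla2*, also rose (0.45, adjusted p = 0.00622), and the GTP-forming beta subunit *Suclg2* did not pass the test (0.15, adjusted p = 0.231). In the interaction 13 of the 18 were called, all positive, where 16.2% of all genes were called with a positive difference.

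Pyruvate dehydrogenase and its regulators were a list of 12 genes. In ECs 3 of them fell, where 8.06% of all genes were called lower. These were *Pdk2*, *Pdk4* and *Pdpr* (log2 fold change -1.03, adjusted p = 0.0237, edgeR), the regulatory subunit of the phosphatase. *Pdp1*, the catalytic subunit of the phosphatase that reactivates the complex, rose there, from a mean of 10.5 CPM to 17.7 CPM (0.76, adjusted p = 0.0293). *Pdk1* was lower without passing (-1.03, adjusted p = 0.0831), and *Pdk3* was scarce, at 6.69 and 7.80 CPM.

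In heart tissue 2 of the 12 rose and 2 fell, which is near the shares of all genes called there, 17.2% higher and 16.2% lower. *Pdhb*, the beta subunit of E1, rose (0.54, adjusted p = 0.00144, edgeR) while *Pdha1*, its alpha partner, did not differ beyond its error. *Pdhx*, which anchors E3 in the complex, rose as well (0.33, adjusted p = 0.0170). The genes that fell were both kinases, *Pdk4* and *Pdk1* (-0.32, adjusted p = 0.0229), whereas *Dlat* (0.04, adjusted p = 0.779) and *Dld* (-0.01, adjusted p = 0.964), the E2 and E3 subunits, were near zero.

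Lipoic acid and thiamine diphosphate are the cofactors that pyruvate dehydrogenase and 2-oxoglutarate dehydrogenase share. Of 8 genes of their supply that were tested, 7 rose and 1 fell in heart tissue, where 17.2% of all genes were called higher and 16.2% lower. Those that rose included *Iscu*, a scaffold for iron-sulfur clusters (0.82, adjusted p = 0.00272, edgeR), and *Lipt2*, a transferase of the lipoate pathway (0.76, adjusted p = 0.0155). In ECs *Iscu* was the 1 gene of the 8 that was called, and it fell (-0.65, adjusted p = 0.0183, edgeR). Of all genes, 8.06% were called lower there.

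**Figure D3:**
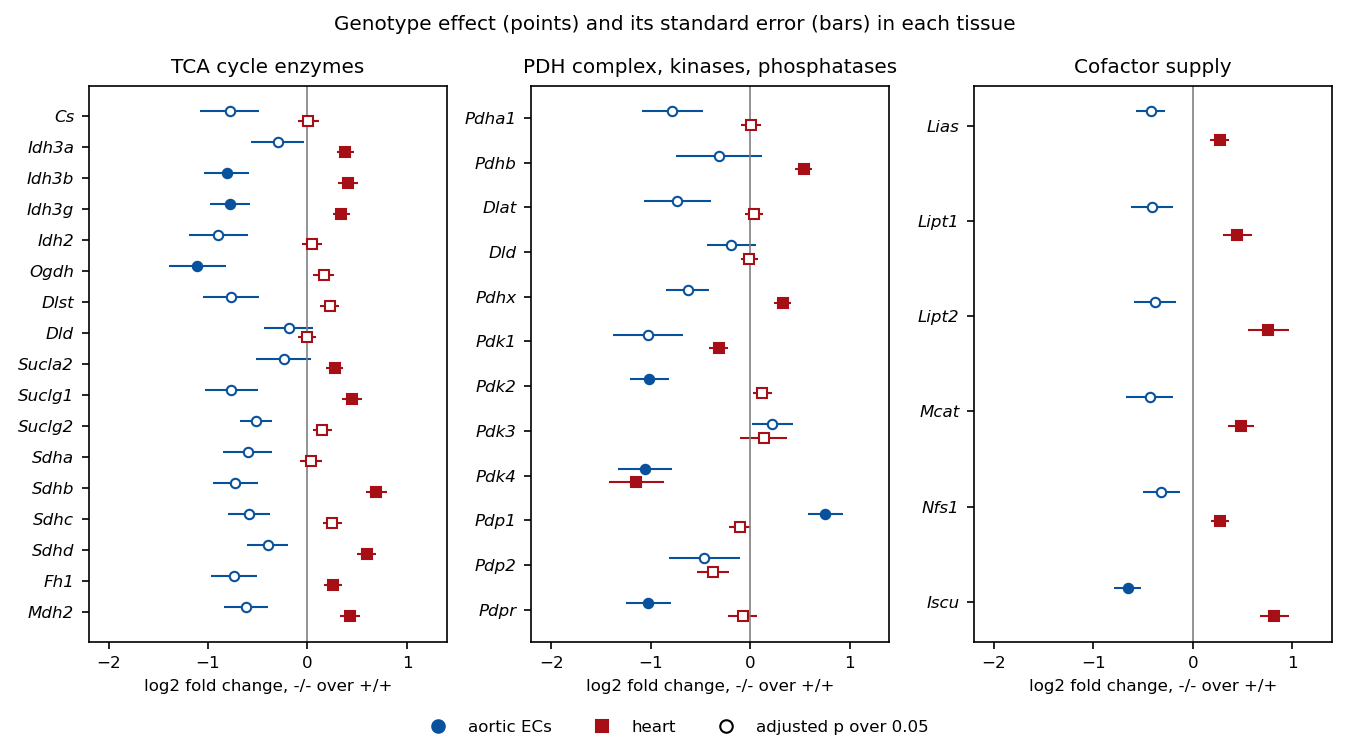
The x axis is the log2 fold change of *Hmox2*-/- over *Hmox2*+/+ and the y axis genes of the TCA cycle, of pyruvate dehydrogenase with its kinases and phosphatases, and of cofactor supply, with circles for aortic ECs, squares for heart tissue, bars for the SE and filled symbols for an adjusted p of at most 0.05. TCA cycle enzymes lie left of zero in ECs and mostly right of it in heart tissue, and the *Pdk4* symbols lie together at -1.05 and -1.14.

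Lists of neighbouring pathways give the setting of the 9 genes. The counts of each list, here and in the paragraphs on regulators, glucocorticoid targets and carbon supply, stand beside these shares of all genes. In ECs 8.06% were called lower, and in heart tissue 17.2% were called higher and 16.2% lower. Among 16 known targets of PPAR alpha besides *Pdk4*, 2 fell and none rose in ECs, and *Plin5*, a lipid droplet protein, was among those that fell (log2 fold change -0.71, adjusted p = 0.0436, edgeR). In heart tissue 4 fell and 1 rose. The largest falls were those of *Ucp3* (-1.20, adjusted p = 0.0226) and *Cpt1a* (-0.72, adjusted p = 0.00133), and *Plin5* rose there (0.39, adjusted p = 0.0489). *Cpt1b* of the same list did not fall in heart tissue. Its mean was 586 CPM in *Hmox2*+/+ hearts and 616 CPM in *Hmox2*-/- hearts, against 58.5 and 35.6 CPM for *Cpt1a*.

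*Ppara* itself fell in ECs, from a mean of 86.6 CPM to 23.5 CPM (-1.88 on the log2 scale, adjusted p = 0.00738, edgeR), with the coactivator *Ppargc1b* (-1.54, adjusted p = 0.0164) and the nuclear receptor *Esrra* (-0.63, adjusted p = 0.0430), which made 3 of 13 regulators of mitochondrial genes. In heart tissue 2 of the 13 rose and 4 fell, the latter being *Ppargc1b* (-0.73, adjusted p = 0.00779), *Foxo3* (-0.68, adjusted p = 0.00448), *Esrrg* (-0.51, adjusted p = 0.0386) and *Gabpa* (-0.41, adjusted p = 0.0220). *Ppara* was 32.3 and 30.1 CPM in hearts of the genotypes, and its effect differed between the tissues (difference 1.82, adjusted p = 0.00180).

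Glucocorticoid and FOXO targets besides *Pdk4* had 0 of 11 genes called in ECs (edgeR), with 1 at an unadjusted p under 0.05 and 1 called by DESeq2. In heart tissue 3 of 12 rose and 4 fell. *Cdkn1a* rose most (1.499, adjusted p = 4.1e-05, edgeR), and *Per1* (-1.12, adjusted p = 0.000651) and *Irs2* (-0.98, adjusted p = 0.000164) fell most.

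Genes that feed pyruvate and other carbon into the cycle were a list of 20. In ECs 2 of the 19 tested fell, *Pcx* for pyruvate carboxylase (-1.23, adjusted p = 0.0489, edgeR) and *Me3* (-0.93, adjusted p = 0.0357), and 2 rose, with *Slc25a12*, a mitochondrial aspartate and glutamate carrier, at 0.44 (adjusted p = 0.0402). In heart tissue 8 of 20 rose and 1 fell. Both subunits of the mitochondrial pyruvate carrier were among the risers, *Mpc2* (0.74, adjusted p = 0.00479) and *Mpc1* (0.55, adjusted p = 0.0145).

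Levels of different genes can be set side by side only per length, in TPM, the length-scaled unit of Kallisto. CPM was normalized within each tissue, so TPM is also used here for a gene in different tissues. TPM is not normalized between libraries, and the smaller share of mitochondrially encoded RNA raises the TPM of other genes in *Hmox2*-/- hearts. In *Hmox2*+/+ hearts *Mdh2* was the most abundant member at 691 ± 106 TPM (SD, n = 4), followed by *Ogdh* at 525 ± 81.9 TPM and *Cs* at 426 ± 46.3 TPM, and *Pdk4* was the lowest at 103 ± 34.1 TPM, under *Pdk2* at 184 ± 30.7 TPM. In *Hmox2*+/+ ECs *Mdh2* led as well at 581 ± 91.8 TPM (n = 3), but *Pdk4* at 342 ± 84.9 TPM stood above *Pdk2* at 135 ± 26.8 TPM. The TPM ratio of *Pdk4* to *Pdk2* was thus 2.25 to 2.80 in *Hmox2*+/+ ECs and 2.34 to 2.59 in *Hmox2*-/- ECs. In heart tissue it was 0.307 to 0.989 in *Hmox2*+/+ mice and 0.193 to 0.277 in *Hmox2*-/- mice.

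Across the 4 groups, 6 members (*Cs*, *Ogdh*, *Fh1*, *Mdh2*, *Pdha1* and *Pdk2*) were highest in *Hmox2*-/- hearts and lowest in *Hmox2*-/- ECs, and for each the lowest group did not overlap with the next. At the upper end *Mdh2* alone was apart from the second group, and for the other 5 the highest groups overlapped. The order and the ratios below hold for TPM, which is not normalized between libraries. Here and in the preceding paragraph, ECs stand for whole aortic libraries, which also held RNA of fat and smooth muscle. In CPM, *Cs* and *Pdha1* were at 100.6% and 100.5% of their *Hmox2*+/+ mean in *Hmox2*-/- hearts. The mean of *Ogdh* was 525 TPM in *Hmox2*+/+ hearts against 372 TPM in *Hmox2*+/+ ECs, a ratio of 1.41, and the same ratio was 4.20 in *Hmox2*-/- mice. *Pdk2* went from a ratio of 1.36 to 3.67. *Idh3a* and *Sucla2* were highest in *Hmox2*+/+ ECs, overlapping with *Hmox2*-/- hearts, and lowest in *Hmox2*+/+ hearts. *Pdk4* alone was highest in *Hmox2*+/+ ECs and lowest in *Hmox2*-/- hearts, with heart to EC ratios of 0.303 and 0.366.

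Among transcripts, the estimated make-up of *Sucla2* differed between the genotypes in the EC libraries. *Sucla2* lies on the plus strand of chromosome 14, at 73762759 to 73834335 (GRCm39). In the GENCODE M39 annotation the protein-coding transcripts *Sucla2-201* and *Sucla2-203* have identical coding exons and differ after the stop codon. There *Sucla2-201* leaves exon 11 at 73832913 and ends with exon 12 at 73833138 to 73833223. *Sucla2-203* runs on in exon 11 from 73832814 to 73834335, so the 3′ UTR differs in that annotation. The *Sucla2-203* that was quantified had 2229 bases, of which exon 11 of M39 alone would take 1522. Too few would be left for the shared coding exons. The quantified version was thus not this model, and where it ends is not known.

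*Sucla2-201* held 65.1%, 67.6% and 66.1% of the TPM of the gene in *Hmox2*+/+ ECs and 44.3%, 48.5% and 49.7% in *Hmox2*-/- ECs. The groups stood far apart against their spread, although the exact permutation test cannot go below p = 0.1 here. *Sucla2-203* made up nearly all of the rest. In TPM, *Sucla2-201* was 232 to 342 in *Hmox2*+/+ ECs and 140 to 178 in *Hmox2*-/- ECs, while *Sucla2-203* was 118 to 183 and 172 to 177. The small difference of the whole gene in ECs was thus the sum of a lower transcript and one that overlapped between the genotypes. In heart tissue the share of *Sucla2-201* was 58.6 to 65.8% against 55.9 to 60.9% (exact permutation p = 0.429). Both transcripts share their coding exons, so these shares rest on how Kallisto assigned shared reads. The part of the cell types in the difference between EC libraries was not tested.

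**Figure D4:**
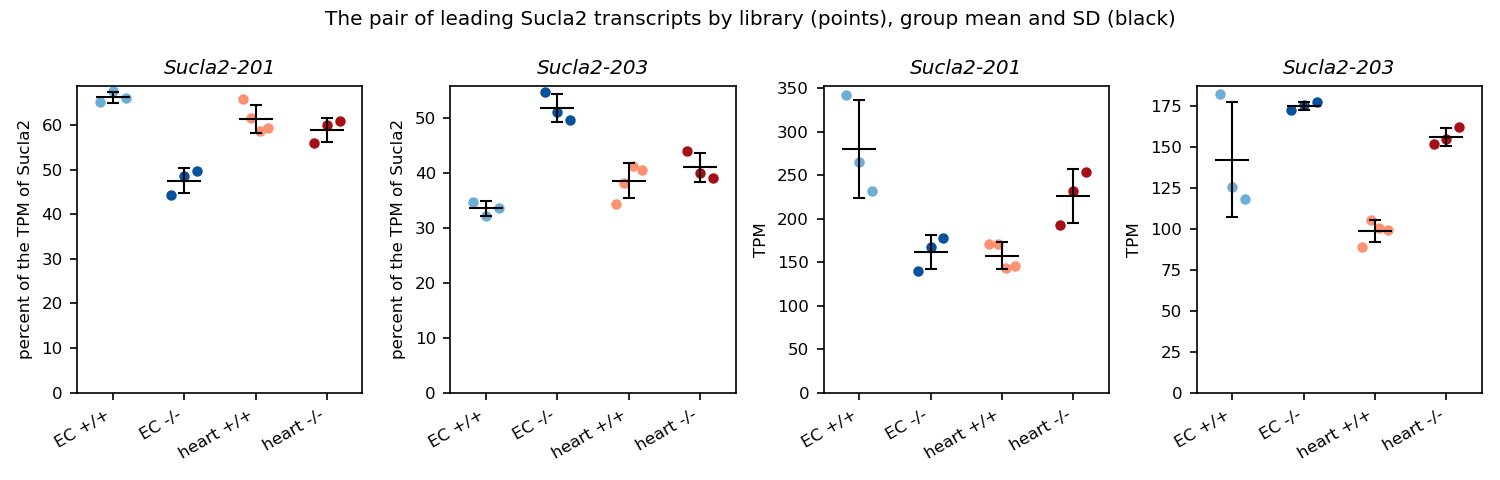
The left pair of panels gives the share of the TPM of *Sucla2* (y axis, percent) held by *Sucla2-201* and *Sucla2-203* in each group (x axis), and the right pair the TPM of each transcript, with points for libraries and black bars for the mean and SD. The share of *Sucla2-201* is 66.2% ± 1.25 in *Hmox2*+/+ ECs and 47.5% ± 2.84 in *Hmox2*-/- ECs, with heart tissue between them.

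*Idh3a* showed a similar division. *Idh3a-205*, its leading protein-coding transcript, was 162 to 239 TPM in *Hmox2*+/+ ECs and 123 to 156 TPM in *Hmox2*-/- ECs, whereas *Idh3a-203*, annotated as a retained intron, was 145 to 155 TPM and 141 to 179 TPM. The share of *Idh3a-205* did not overlap, at 46.2 to 54.9% against 39.9 to 41.9% (exact permutation p = 0.1, the smallest possible). These transcripts overlap in most of their bases and 21.1% of the 31-base words of *Idh3a* also occur in *Acsbg1*, so the division rests on how Kallisto assigned shared reads. *Mdh2-203*, annotated as a target of nonsense-mediated decay, was 0.427 to 0.857% of *Mdh2* in *Hmox2*+/+ hearts and 1.25%, 2.99% and 8.28% in *Hmox2*-/- hearts (exact permutation p = 0.0286, the smallest possible). *Cs-201* held at least 99.85% of the TPM of *Cs* in each of the 13 libraries.

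Other genes with the most similar pattern were ranked by the root mean square (RMS) of the difference in log2 level from the gene, each level taken from its mean in the tissue, over 13 libraries and 13351 genes. *Fh1* had the closest match, *Atp5f1b* of the ATP synthase, at 0.0434 log2 units, where the median gene was at 0.395. *Mdh2* was followed most closely by *Ndufa9* (0.0573) of respiratory complex I, *Pdk2* by *Pnpla2* (0.0610), the adipose triglyceride lipase, *Idh3a* by *Uqcrc2* (0.0791) of complex III and *Cs* by *Trp53inp2* (0.0843). *Sucla2* was nearest to *Etfa* (0.0978) and *Pdha1* to *Rmdn3* (0.105). *Pdk4* was farthest from its nearest gene, *Vldlr*, a lipoprotein receptor, at 0.266. It also varied most of the members around its tissue means, with an RMS of 0.645 against 0.254 for *Sucla2*.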

How the data were processed

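The authors pseudoaligned paired 100-base reads of oligo-dT directional libraries with Kallisto 0.44.0, 1 library at a time. The deposited estimated counts and TPM values are given per transcript, without scaling across libraries. Their methods give GENCODE M32 for the index, and the processing notes list mm10 and GRCh38.p13.

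Stable identifiers linked 115140 of 118489 transcripts to genes in GENCODE M39 (GRCm39). Transcripts without a match held 0.755 to 1.01% of the counts. Per gene, estimated counts were added up and then rounded, and TPM values were added up. After filterByExpr (minimum count 10) and TMM, each tissue was tested on its own by the quasi-likelihood test (edgeR 4.0.16, limma 3.58.1, R 4.3.3), with Benjamini-Hochberg adjustment over all genes tested. CPM uses the same TMM sizes. The interaction was fitted over 13 libraries. Alternatives included DESeq2 1.42.0. The fits were tested on simulated data.

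The members and gene lists were chosen with earlier results of these data known. Named genes were the members, *Hmox2*, the genes of the 3 core lists where the text turns on them, at most 4 called genes of each other pathway list per comparison by size of change, at most 3 genes of a marker list and the 3 genes most like each member. Nothing states that libraries of a group came from separate litters, so p-values measure the spread between these libraries. Replicates differed by more than sampling noise. Some genes of the lists are counted but not reported here by name.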

Additional observations from a re-analysis of the deposited data

Results flagged for a closer look

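Genotype effects that differed between the tissues in the interaction test (edgeR, adjusted p of at most 0.05) were found for 22 of 34 genes of the members and the lists of the TCA cycle, pyruvate dehydrogenase and cofactor supply. Where 28.8% of all genes tested had such a difference, they are given as values without an explanation. The differences in log2 fold change, heart minus ECs, were 1.31 for *Ogdh*, 1.03 for *Fh1*, 1.09 for *Mdh2* and 1.18 for *Pdk2* among the members. Among the other TCA cycle enzymes they were 1.26 for *Idh3b*, 1.16 for *Idh3g*, 0.98 for *Idh2*, 1.03 for *Dlst*, 1.25 for *Suclg1*, 0.71 for *Suclg2*, 1.46 for *Sdhb*, 0.88 for *Sdhc* and 1.04 for *Sdhd*. In the pyruvate dehydrogenase list they were 0.99 for *Pdhx*, 1.00 for *Pdpr* and -0.82 for *Pdp1*, the 1 negative difference. In cofactor supply they were 0.73 for *Lias*, 0.91 for *Lipt1*, 1.19 for *Lipt2*, 0.96 for *Mcat*, 0.63 for *Nfs1* and 1.51 for *Iscu*.

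In the *Hmox2*+/+ hearts, the group with 4 libraries, 1 library stood far from the others for 2 of the 34 genes and for none of the 9 members. *Dld* was 377 CPM in replicate 2 and *Lias* 38.5 CPM in replicate 1, which is the library of low depth. Chance alone flags about 1 in 20 such groups.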

How the results depend on the processing

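Leaving out 1 library at a time, members called ranged from 0 to 6 in ECs, 3 to 5 in heart tissue and 4 to 8 in the interaction, and all genes called from 638 to 3596 in ECs and 2888 to 5686 in heart tissue. Counts of members called, 3, 5 and 4 in the 3 comparisons, became 7 in ECs and 7 in the interaction with DESeq2, 3 in heart tissue without a filter on low counts, and 7 in ECs and 1 in heart tissue with all 13 libraries in 1 fit, where 4319 genes in place of 2766 were called in ECs. The member still called in heart tissue in that fit was *Pdk4*, so none of the 4 rises was called there. With the brown adipocyte level as a covariate 1660 genes were called in ECs. The causes were not tested. Upper-quartile normalization moved the median of all genes in the interaction from 0.03 to -0.07, and the offset for length and GC content moved it to 0.15.

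Among the members, 77 of 90 values in ECs, 63 of 81 in heart tissue and 65 of 72 in the interaction kept their sign and their side of the threshold under settings that used all libraries. Signs turned only for values that were never called. In heart tissue *Cs* was -0.0070 with counts from length-scaled TPM, -0.014 with the offset and -0.011 with the block, *Pdha1* was -0.010 with length-scaled TPM and *Pdk2* -0.017 with the offset. The interaction of *Pdk4* was 0.44 with the offset. Without 1 library, *Sucla2* in ECs ranged from -0.43 to 0.13, in heart tissue *Cs* from -0.060 to 0.10 and *Pdha1* from -0.067 to 0.072, and the interaction of *Pdk4* from -0.27 to 0.26.

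The replicate number as a block gave 1 member called in ECs and 3 in heart tissue, with 2899 genes called there in place of 4618. Same-numbered libraries did not deviate together throughout (correlations of 0.22, 0.08 and 0.06 in ECs and -0.08, 0.12 and 0.06 in heart tissue), not every library correlated best with its own number, and the labels give the numbers no meaning, so they were not taken as pairs. Heart *Hmox2*+/+ replicate 1 had 7268626 counts, and without it 3 members were called in heart tissue. With 3 or 4 libraries per group, no single gene can reach an exact permutation p under 0.1 in ECs or under 0.0286 in heart tissue.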
